A study of Mus musculus with 49 samples.

Results

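Organoids of 2 kinds grown from mouse intestine were compared over all genes: budding organoids (BOs) of intestinal stem cells (ISCs) from adult crypts, and spherical organoids (SOs) of fetal intestinal progenitor cells (FIPCs). The libraries were taken by their labels, 4 of ISC-derived BOs and 3 of FIPC-derived SOs, out of 49 libraries in 16 groups. The study cultured adult hepatocytes until they dedifferentiated into cells it calls dediHeps, and grew these into organoids with an intestinal character. The organoids described here served it as the fetal and the adult intestinal references. The assay was CEL-Seq2, a 3′ method that counts transcripts by unique molecular identifiers (UMIs).

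All 7 libraries came from wild-type C57BL/6J mice. ISC-derived BOs were grown from small-intestinal crypts of adult mice 10 weeks of age, FIPC-derived SOs from intestinal cells of embryos at stage E13.5, and both were embedded in Matrigel, a basement membrane gel. According to the study, crypts were kept in EGF, Noggin and R-spondin1, whereas the medium that makes FIPCs form SOs also holds Wnt3a and the Wnt agonist CHIR99021. For the culture of both organoids its methods refer to earlier work. Age, stretch of intestine, organoid form and probably medium therefore changed together between the groups and cannot be told apart. RNA was extracted with ISOGEN II or an RNeasy kit, with no record of which was used for which library. The labels number the samples of a group as replicates without saying which animal or culture each came from, and the study states only in general that experiments were repeated independently, so the p-values measure the spread between these samples.

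As background, the adult small intestine is renewed from Lgr5-positive stem cells at the crypt base, and in organoids these form buds with Paneth cells around a lumen lined by enterocytes. Before birth the epithelium has no mature crypts, and its progenitors grow as hollow spheres that carry a set of fetal genes, some of which return when adult epithelium regenerates. Around weaning enterocytes exchange milk-digesting functions for those of a solid diet. Cdx2 is the homeobox factor that sets intestinal identity in both stages.

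The totals were 2251588 to 2477523 counts in FIPC-derived SOs and 1757504 to 2337097 in ISC-derived BOs, and 15543 to 17730 genes had a count in a library. Levels are given as CPM, counts relative to the library size scaled by TMM factors, in the order of the replicate numbers, and 3 counts in a library correspond to 1.12 to 1.82 CPM. The first FIPC-derived SO library and the second ISC-derived BO library stood apart, since their deviations from their group means went together over genes (r = 0.678 over 11644 genes, which are not independent). The third FIPC-derived SO library held 587 counts of Col1a1 and 529 of Col3a1, collagen genes of mesenchyme, against 0 to 9 and 0 to 14 in the other 6 libraries. Xist, transcribed from the inactive X chromosome of females, had 511 to 1250 counts in replicates 1 and 2 of both groups, and Y-linked genes had 537 to 1107 counts in the remaining 3 libraries. The methods state that crypts came from male mice, and 2 of the 4 ISC-derived BO libraries thus went against them. Both groups held libraries of both kinds.

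The identity of the organoids was checked on marker lists. Epcam, an adhesion molecule of epithelia, stood at 471, 506 and 540.2 CPM in FIPC-derived SOs and 554, 354, 592 and 549.8 CPM in ISC-derived BOs. Cdx2 stood at 459, 324 and 359.8 CPM and 383, 406, 388 and 337 CPM. The ranges of the groups overlapped for both genes, and every library was epithelial and intestinal by these markers. Alb, the albumin gene of hepatocytes, had 0 and 2 counts in all FIPC-derived SO and all ISC-derived BO libraries together, and Sox2, the transcription factor of the stomach, had 10 and 0. Of the 22 stem cell markers listed, Olfm4, a secreted glycoprotein much used to mark these cells, was nearly absent from both groups with 1 and 8 counts.

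Genes were compared with the quasi-likelihood test of edgeR, and were called at the thresholds of the study, an FDR (the Benjamini-Hochberg adjusted p) under 0.1 with an absolute log2 fold change over 2. Fold changes are ISC-derived BO over FIPC-derived SO throughout. Of 11644 genes tested, 771 were called, or 6.62%. Of these, 466 (4% of the genes tested) were higher in ISC-derived BOs and 305 (2.62%) were higher in FIPC-derived SOs. The split depended on the low-count filter and on the libraries in the fit: with no filter 691 genes were higher in ISC-derived BOs and 813 lower, with 0.5 CPM in 1 library as the filter 660 and 684, and with all libraries of the series in the fit 552 and 561. The median log2 fold change over all genes tested was -0.03. The counts and medians of the gene lists below are to be read beside these shares and this median. Most called genes code for proteins, 444 of those higher in ISC-derived BOs and 278 of those higher in FIPC-derived SOs. The groups did not overlap in 2773 of the genes tested (23.8%), among them 760 of the called genes. In 31 genes called higher in ISC-derived BOs the FIPC-derived SOs held no count, and in 21 genes the reverse was seen. Without the first FIPC-derived SO and the second ISC-derived BO library 855 genes were called, 502 higher in ISC-derived BOs and 353 higher in FIPC-derived SOs, of which 716 were also called with them. Counting intervals and floors given here cover counting error only. These counts come from bulk RNA, in which fewer cells of a type and less RNA per cell cannot be told apart.

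**Figure D1:**
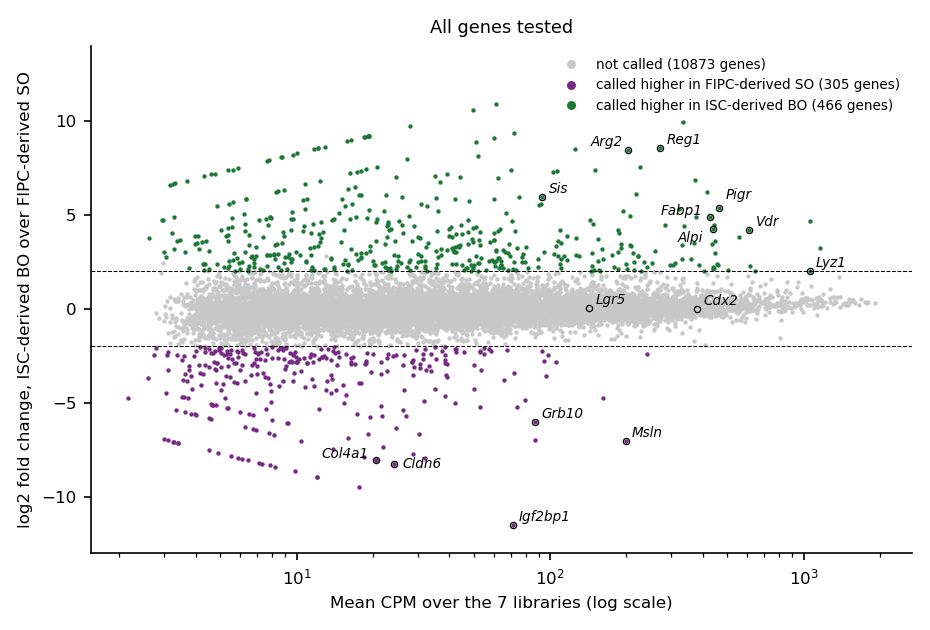
Each point is a gene tested, with its mean CPM over the 7 libraries on the log-scaled x axis and its log2 fold change of ISC-derived BOs over FIPC-derived SOs on the y axis. Green marks the 466 genes called higher in ISC-derived BOs, purple the 305 called higher in FIPC-derived SOs, and dashed lines the fold threshold. Points on the slanting lines are genes with no or few counts in one group, whose fitted fold depends on the prior count.

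Among the called genes whose groups did not overlap, those with the smallest p and a higher level in ISC-derived BOs were Reg1, Arg2, Pnliprp2, Pigr, Slco2b1, Cyp4v3, Casp1, Cyp2b10, Fbp1 and Reg3a. Several of their products act in defence of the mucosa, digestion or metabolism. Reg1 (chromosome 6, 78422711 to 78428667, plus strand, GRCm38), a secreted lectin-like protein of the regenerating islet family, had 0.879, 0.831 and 1.86 CPM in FIPC-derived SOs and 599.9, 637, 333 and 329 CPM in ISC-derived BOs (log2 fold change 8.54 ± 0.49 (SE), FDR = 9.33e-06). Reg3a of the same family had 0.879, 0 and 0.746 CPM and 542, 623, 262 and 921 CPM (log2 fold change 9.93 ± 0.69 (SE), FDR = 1.72e-05). Reg genes lie side by side and are similar in sequence, so that their separate counts are uncertain. Arg2 (chromosome 12, 79130777 to 79156301, plus strand), the mitochondrial arginase, had 0.879, 1.25 and 0.746 CPM against 306, 411, 209 and 498 CPM (log2 fold change 8.46 ± 0.49 (SE), FDR = 9.33e-06). Pigr, the receptor that carries polymeric immunoglobulins across the epithelium, was present in both groups, at 27.7, 12.9 and 16.8 CPM in FIPC-derived SOs and 664, 763, 859 and 899.8 CPM in ISC-derived BOs (log2 fold change 5.38 ± 0.32 (SE), FDR = 9.33e-06). In all 4 genes the lowest ISC-derived BO library lay far above the highest FIPC-derived SO library.

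Pnliprp2, a lipase related to that of the pancreas, had 1.32, 1.25 and 1.12 CPM and 77.8, 70.6, 77.6 and 65.9 CPM (log2 fold change 5.83 ± 0.35 (SE), FDR = 9.33e-06). Casp1, the caspase of inflammasomes, had 3.08, 2.91 and 4.1 CPM against 182, 132, 122 and 186 CPM (log2 fold change 5.5 ± 0.36 (SE), FDR = 1.28e-05). Slco2b1, an organic anion transporter, had 0, 0.415 and 1.12 CPM against 214, 225, 189 and 247 CPM (log2 fold change 8.52 ± 0.52 (SE), FDR = 9.33e-06). For Fbp1, a key enzyme of gluconeogenesis, a single count was found in all FIPC-derived SO libraries, and the ratio of the pooled levels was 933-fold, 95% counting interval 167 to 36895 (FDR = 1.28e-05). The cytochromes Cyp4v3 and Cyp2b10 had log2 fold changes of 5.33, FDR = 1.28e-05 and 7.29, FDR = 1.28e-05.

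By the same rule, the leading genes with a higher level in FIPC-derived SOs were Enah, Grb10, Col4a1, Cpne8, Rbpms, Rbm11, Amotl1, Cldn6, Klhl13 and Fut2. Enah (chromosome 1, 181896384 to 182019990, minus strand), a regulator of actin filaments, had 79.6, 58.2 and 71.6 CPM in FIPC-derived SOs and 0.608, 0.947, 0.476 and 0.499 CPM in ISC-derived BOs (log2 fold change -6.65 ± 0.38 (SE), FDR = 9.33e-06). Grb10 (chromosome 11, 11930508 to 12038683, minus strand), an imprinted adaptor protein that restrains insulin and growth factor receptors, had 242, 196 and 161 CPM against 3.65, 1.42, 4.76 and 2.5 CPM (log2 fold change -6.0 ± 0.39 (SE), FDR = 1.28e-05). Rbpms, an RNA-binding protein, had 33.8, 78.5 and 57 CPM against 0.608, 0.474, 0.952 and 0.499 CPM (log2 fold change -6.35 ± 0.47 (SE), FDR = 2.09e-05). The other leading genes were at or near 0 in ISC-derived BOs. Cldn6, a claudin of early embryonic epithelia, had 79.6, 51.1 and 38.4 CPM in FIPC-derived SOs and a single count in ISC-derived BOs, a ratio of 434-fold, 95% counting interval 77.5 to 17199.5. Amotl1, an angiomotin that binds Yap and tight junctions, had 36.9, 52.4 and 63 CPM and a ratio of 202-fold, 95% counting interval 55.6 to 1676. Fut2, the fucosyltransferase of secreted and surface glycans, had 33, 36.6 and 40.6 CPM and a ratio of 145-fold, 95% counting interval 39.8 to 1205. The remaining members, the copine Cpne8, the splicing factor Rbm11 and the ubiquitin ligase adaptor Klhl13, had ratios of 338, 381 and 261.

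**Figure D2:**
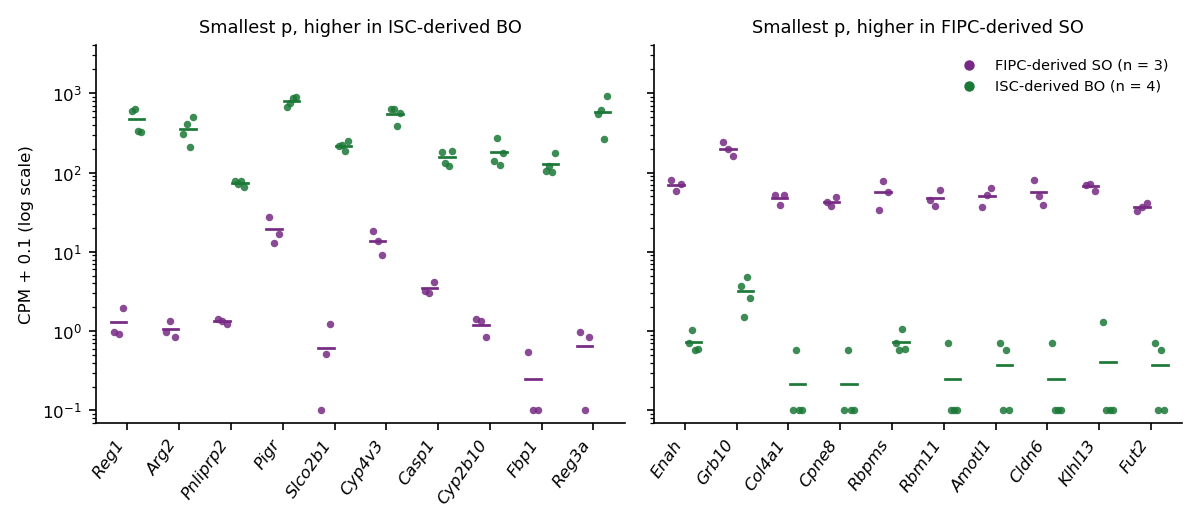
Levels of the leading 10 genes of either direction, on a log-scaled y axis of CPM with 0.1 added so that 0 can be drawn. Points are libraries (purple, 3 of FIPC-derived SOs, and green, 4 of ISC-derived BOs) and lines are group means. The groups do not overlap for any gene shown, which was part of the rule by which these genes were chosen.

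Of the 7 genes that the study lists as targets of Cdx2 in the adult intestine, all 7 were called higher in ISC-derived BOs, with a median log2 fold change of 4.24. The study took these genes from earlier work and gave their levels in these samples, which were known when the list was used here, so that the count is not independent evidence of its direction. Sis, the disaccharidase sucrase-isomaltase, had 2.2, 3.32 and 2.24 CPM in FIPC-derived SOs and 144, 145, 96.2 and 259 CPM in ISC-derived BOs (log2 fold change 5.93 ± 0.47 (SE), FDR = 3.02e-05). Alpi, the intestinal alkaline phosphatase, had 24.6, 63.2 and 29.5 CPM against 833, 701, 687 and 742 CPM (log2 fold change 4.24 ± 0.35 (SE), FDR = 3.54e-05). The fatty acid-binding protein Fabp1 had 5.71, 52.8 and 14.9 CPM against 812, 638, 385 and 1095 CPM (log2 fold change 4.9 ± 0.69 (SE), FDR = 7.06e-04). These were all well above the depth limit in ISC-derived BOs, and Fabp1 varied widely within each group. Its relative Fabp2 was at 60.7, 101 and 31.3 CPM and 965, 657, 701 and 1360.2 CPM (log2 fold change 3.84 ± 0.43 (SE), FDR = 1.87e-04). Lct, the lactase of suckling animals, was scarce, with 1.32, 0 and 0 CPM in FIPC-derived SOs, where it had 3 counts in all, and 12.2, 12.8, 5.71 and 12 CPM in ISC-derived BOs, a ratio of 25.9-fold, 95% counting interval 8.57 to 128 (FDR = 0.00311). The metalloprotease Mep1b and the lipid transfer protein Mttp, which loads chylomicrons, had log2 fold changes of 2.93, FDR = 7.38e-04 and 2.25, FDR = 8.42e-04. Cdx2 itself was not called (log2 fold change -0.01 ± 0.20 (SE), FDR = 0.985), with levels between 324 and 459 CPM in all libraries, and the sign of its fold changed between settings.

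The promoters of these genes are shown because Cdx proteins bind sites of the form TTTATNG. The windows run from 250 bases before to 50 bases after a transcription start (RefSeq, GRCm38.p6), and capitals mark matches on either strand to a motif of Cdx, Hnf4, Tcf and Lef, Gata, AP-1 or Tead factors. They are those of Sis (chr3:72967814-72968113, minus strand), Alpi (chr1:87101557-87101856, minus strand), Fabp1 (chr6:71199629-71199928, plus strand) and Fabp2 (chr3:122894822-122895121, plus strand), each read along its gene. As examples higher in FIPC-derived SOs, the windows of Cldn6 (chr17:23679115-23679414, plus strand) and Anxa1 (chr19:20390622-20390921, minus strand) follow.
Sis: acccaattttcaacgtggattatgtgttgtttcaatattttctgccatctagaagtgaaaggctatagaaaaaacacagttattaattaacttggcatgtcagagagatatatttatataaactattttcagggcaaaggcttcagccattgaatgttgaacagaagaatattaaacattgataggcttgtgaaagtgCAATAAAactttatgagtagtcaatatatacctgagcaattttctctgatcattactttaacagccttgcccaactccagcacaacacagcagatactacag
Alpi: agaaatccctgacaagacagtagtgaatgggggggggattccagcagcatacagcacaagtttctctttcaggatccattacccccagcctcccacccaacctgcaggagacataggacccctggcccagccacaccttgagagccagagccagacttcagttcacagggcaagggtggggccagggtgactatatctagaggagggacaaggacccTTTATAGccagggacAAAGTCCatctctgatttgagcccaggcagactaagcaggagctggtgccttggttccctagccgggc
Fabp1: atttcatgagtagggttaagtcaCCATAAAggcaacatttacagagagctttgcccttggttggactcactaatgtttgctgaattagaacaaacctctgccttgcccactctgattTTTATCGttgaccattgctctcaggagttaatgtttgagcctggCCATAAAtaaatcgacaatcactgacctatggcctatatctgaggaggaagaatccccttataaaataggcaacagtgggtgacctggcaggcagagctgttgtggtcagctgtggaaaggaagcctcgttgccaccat
Fabp2: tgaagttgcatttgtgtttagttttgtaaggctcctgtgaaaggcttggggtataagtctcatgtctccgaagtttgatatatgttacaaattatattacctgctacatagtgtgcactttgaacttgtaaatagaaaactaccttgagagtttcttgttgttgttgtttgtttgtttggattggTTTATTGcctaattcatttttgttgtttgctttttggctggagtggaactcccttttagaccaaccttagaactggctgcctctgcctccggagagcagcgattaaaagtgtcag
Cldn6: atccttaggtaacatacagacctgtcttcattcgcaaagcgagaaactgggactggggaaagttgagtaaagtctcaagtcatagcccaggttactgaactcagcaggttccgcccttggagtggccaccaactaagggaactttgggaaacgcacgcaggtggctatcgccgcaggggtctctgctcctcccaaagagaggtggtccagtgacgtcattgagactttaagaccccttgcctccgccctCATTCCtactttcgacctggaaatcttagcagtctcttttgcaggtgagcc
Anxa1: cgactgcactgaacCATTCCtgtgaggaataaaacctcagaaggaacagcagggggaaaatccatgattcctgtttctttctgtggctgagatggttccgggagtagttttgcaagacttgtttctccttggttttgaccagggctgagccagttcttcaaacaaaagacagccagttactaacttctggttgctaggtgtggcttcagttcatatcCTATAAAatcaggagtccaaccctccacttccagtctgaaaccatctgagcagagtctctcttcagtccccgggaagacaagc

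Fabp1 held 3 Cdx matches, Fabp2 and Sis 1 each, and Alpi 1 Cdx and 1 Hnf4 match. Cldn6 held 1 Tead match and Anxa1 1 Tead and 1 Cdx match. These 2 examples are not typical of the leading genes higher in FIPC-derived SOs. The windows of Enah, Col4a1, Cpne8 and Amotl1 held no match to any of the 6 motifs, and 1 window each of Grb10 and Klhl13 held 1. The matches shown did not overlap. The Cdx match of Anxa1, which begins 33 bases before the start, also holds the letters of a TATA box on the strand of the gene. That of Alpi begins at the same distance and holds the same letters on the opposite strand. The windows of Lct and Mttp held no match to any of the 6 motifs, and that of Mep1b is not reported here. Promoter windows were found by symbol for 359 of the 466 genes called higher in ISC-derived BOs (447 windows), 202 of the 305 called higher in FIPC-derived SOs (279 windows) and 8277 of all genes tested (10576 windows). A Cdx match stood in 13.9% of the windows of genes higher in ISC-derived BOs, 6.81% of those of genes higher in FIPC-derived SOs, 6.72% of those of all genes tested and 10.9% of all 32851 windows. For Hnf4, searched as AAAGTCC, the shares were 10.1%, 3.58%, 4.03% and 4.21% in the same order. For AP-1, searched as TGANTCA, they were 12.3%, 6.09%, 5.09% and 7.81%. For Gata, searched as AGATAAG, they were 5.15%, 1.43%, 1.79% and 3.04%, and for Tcf and Lef, searched as ATCAAAG, 4.47%, 2.15%, 2.65% and 3.73%. The Tead motif GGAATG, the shortest, stood in 18.1% and 18.3% of the windows of the called genes, 12.2% of those of all genes tested and 14.7% of all windows. A match is a description of the letters and not a binding site, and other distances were not searched.

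Of 23 tested genes of the brush border and digestion, 15 were called higher in ISC-derived BOs and none higher in FIPC-derived SOs (median log2 fold change 2.98). Apart from those above, the called members were transporters and hydrolases. Members with large differences, chosen after their values were seen, were Treh, the trehalase, which had a single count in FIPC-derived SOs (264-fold, 95% counting interval 47 to 10472, FDR = 3.35e-04), and the sugar transporters Slc2a5 (log2 fold change 7.37, FDR = 3.66e-04) and Slc2a2 (7.32, FDR = 4.65e-05). Vil1, which bundles actin in every microvillus, was not called, with 421, 217 and 243 CPM and 413, 454, 374 and 369 CPM (log2 fold change 0.45 ± 0.26 (SE), FDR = 0.324). Of 20 tested genes of lipid handling, 15 were higher in ISC-derived BOs and none lower (median 2.84). Creb3l3, a membrane-bound transcription factor of lipid metabolism, had 7.91, 17 and 9.69 CPM against 384, 439, 226 and 361 CPM (log2 fold change 4.92 ± 0.39 (SE), FDR = 3.00e-05), and the apolipoprotein Apoc3 had 13.6, 8.73 and 4.85 CPM against 390.2, 511, 127 and 299 CPM (log2 fold change 5.2 ± 0.56 (SE), FDR = 1.50e-04).

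Genes of the weaned or adult enterocyte and of the suckling enterocyte differed in pattern. Of 10 tested genes of the weaned or adult stage, 8 were higher in ISC-derived BOs (median 5.20), among them Sis and Arg2, and the exceptions were the antimicrobial lectins Reg3g and Reg3b. Reg3b had 114, 60.7 and 104 CPM in FIPC-derived SOs and 70.5, 152, 7.14 and 53.4 CPM in ISC-derived BOs (log2 fold change -0.39 ± 0.67 (SE), FDR = 0.786), with overlap of the groups. Of 8 tested genes of the suckling stage, 2 were called higher in each direction (median -0.36). Lct and Fcgrt, the Fc receptor that takes up maternal antibody, were higher in ISC-derived BOs (Fcgrt log2 fold change 2.84 ± 0.79 (SE), FDR = 0.0389), although Fcgrt lost its call without the second (FDR = 0.140) or the third FIPC-derived SO library (FDR = 0.158). Ass1, the argininosuccinate synthase of the suckling gut, and Ctsl, a lysosomal protease, were higher in FIPC-derived SOs, at 28.6, 10.8 and 20.1 CPM against 1.82, 4.26, 3.33 and 1.5 CPM (log2 fold change -2.81 ± 0.47 (SE), FDR = 0.00223) and 39.1, 125 and 124 CPM against 21.3, 15.6, 21.4 and 22 CPM (log2 fold change -2.26 ± 0.39 (SE), FDR = 0.00279).

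Of 33 tested genes of xenobiotic and retinoid metabolism, 22 were called higher in ISC-derived BOs and none higher in FIPC-derived SOs (median 2.49). At an FDR under 0.1 whatever the fold, 31 had a higher level in ISC-derived BOs, against 1077 of all 11644 genes tested. Cyp3a11, a major drug-metabolizing cytochrome, had no count in FIPC-derived SOs and 83.3, 48.8, 41.9 and 173 CPM in ISC-derived BOs, at least 210.5-fold higher with the group without counts set at 3 counts (FDR = 3.31e-04). Cyp4f14, which oxidizes fatty acids and vitamins, had 8.79, 5.4 and 2.61 CPM against 737, 695, 345 and 827 CPM (log2 fold change 6.87 ± 0.49 (SE), FDR = 1.77e-05). Cyp2b10 had 1.32, 1.25 and 0.746 CPM against 141, 273, 125 and 178 CPM. For these 3 genes the groups were far apart in every library. Members of the Cyp3a, Cyp2c and Ces families resemble each other, and their separate counts are uncertain.

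Genes known from fetal spheroids stood among those higher in FIPC-derived SOs. Of 17 tested genes of fetal spheroids and regenerating epithelium, 12 were called higher in FIPC-derived SOs and none higher in ISC-derived BOs (median log2 fold change -4.73). At an FDR under 0.1 whatever the fold, 13 were higher in FIPC-derived SOs and 1 was higher in ISC-derived BOs. The highest log2 fold change of the list was 1.46. With single libraries left out, 0 to 1 members were called higher in ISC-derived BOs. Msln, the glycoprotein mesothelin, had 373, 504 and 498 CPM against 4.25, 1.42, 8.09 and 0 CPM (log2 fold change -7.04 ± 0.65 (SE), FDR = 6.77e-05). Anxa1, a phospholipid-binding annexin, had 25.1, 42 and 66.7 CPM against 0.608, 0.474, 1.43 and 0.499 CPM (log2 fold change -5.77 ± 0.52 (SE), FDR = 5.54e-05). The first FIPC-derived SO library was the lowest of its group for each of these genes. Members outside the naming rule, chosen after their values were seen, were Ly6a, which encodes the surface antigen Sca-1 and had 463, 169 and 450 CPM against 17.6, 18, 17.1 and 1.5 CPM (log2 fold change -4.73 ± 0.61 (SE), FDR = 4.26e-04), and Spp1, the matrix protein osteopontin, with 8.35, 12.5 and 10.8 CPM and no count in ISC-derived BOs (at least 27.8-fold higher). Clu, a secreted chaperone of regenerating epithelium chosen in the same way, had 284, 103 and 146 CPM against 8.51, 8.52, 5.71 and 1.5 CPM (log2 fold change -4.87 ± 0.52 (SE), FDR = 1.45e-04). The 5 members not called were Il1rn, Krt7, Ccnd2, Cd55 and Slco2a1.

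Oncofetal and imprinted growth genes were called in both directions. Of 11 tested, 6 were higher in FIPC-derived SOs and 1 in ISC-derived BOs (median -2.48). Igf2bp1 (chromosome 11, 95957163 to 96005940, minus strand), an RNA-binding protein of embryonic tissues, had 233, 138 and 128 CPM in FIPC-derived SOs and no count in any ISC-derived BO library, at least 428-fold higher (FDR = 4.04e-05). The imprinted transcript H19, named after its values were seen, had 53.2, 12.9 and 66.7 CPM against 0, 1.42, 0 and 0 CPM (118-fold, 95% counting interval 39.9 to 574, FDR = 4.26e-04), and Grb10 is given above. The exception was Afp, the alpha-fetoprotein gene, at 0.879, 1.25 and 0.373 CPM in FIPC-derived SOs and 6.08, 5.68, 12.4 and 4.99 CPM in ISC-derived BOs (log2 fold change 3.07 ± 0.60 (SE), FDR = 0.00603). Its levels were near the depth limit in FIPC-derived SOs.

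Among 11 tested targets of Yap, the transcriptional coactivator that responds to tension and injury, 3 were higher in FIPC-derived SOs and none lower (median -1.17). Myof, a membrane repair protein, had 37.4, 55.3 and 80.9 CPM against 1.82, 2.37, 3.81 and 3.5 CPM (log2 fold change -4.29 ± 0.39 (SE), FDR = 6.50e-05), and the phosphatase Ptpn14 had 22.4, 28.3 and 48.1 CPM against 2.43, 2.84, 1.9 and 0.499 CPM (log2 fold change -4.07 ± 0.48 (SE), FDR = 2.60e-04). The best known target, Ccn2, was too scarce to test, with 0.879, 1.66 and 1.86 CPM in FIPC-derived SOs and no count in ISC-derived BOs, and 10 further members were also below the filter. Of 15 tested laminins, integrins and matrix genes, 5 were higher in FIPC-derived SOs and none lower (median -1.42). The chains of basement membrane collagen were Col4a1, with 52.3, 38.6 and 52.6 CPM in FIPC-derived SOs and a ratio of 377-fold, 95% counting interval 67.2 to 14923, and Col4a2, with 42.6, 20.8 and 33.2 CPM and a ratio of 252-fold, 95% counting interval 44.8 to 9991. The third FIPC-derived SO library, with its fibrillar collagen transcripts, was close to the first for Col4a1 and below it for Col4a2. For Myof and Ptpn14 the third library was the highest of its group. The integrins Itga6 and Itgb1, not named by the rule, had log2 fold changes of -0.25, FDR = 0.607 and -0.15, FDR = 0.753.

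Cell surface and junction families were divided among their members. Of 18 tested annexins and S100 proteins, 5 annexins were higher in FIPC-derived SOs and 1 S100 protein was higher in ISC-derived BOs. Anxa8 had 19.3, 6.65 and 20.5 CPM in FIPC-derived SOs and a single count in ISC-derived BOs (123-fold, 95% counting interval 21.6 to 4889.7), while S100g, the calcium carrier calbindin of the duodenum, had 5.28, 11.6 and 4.47 CPM against 65.6, 97.6, 45.7 and 44.4 CPM (log2 fold change 3.15 ± 0.45 (SE), FDR = 7.93e-04). Of 9 tested claudins, Cldn6 and Cldn8 were higher in FIPC-derived SOs (Cldn8 log2 fold change -3.33 ± 0.35 (SE), FDR = 1.22e-04) and the pore-forming Cldn15 was higher in ISC-derived BOs, at 17.6, 14.5 and 19 CPM against 185, 238, 138 and 129 CPM (log2 fold change 3.33 ± 0.33 (SE), FDR = 9.52e-05). Of 8 tested keratins, Krt4, a keratin of stratified epithelia, had 49.7, 10.4 and 23.9 CPM in FIPC-derived SOs and no count in ISC-derived BOs (at least 71.9-fold higher, FDR = 0.0011), and Krt15 was higher in ISC-derived BOs (2.69, FDR = 0.00399). Of 19 genes of EGF receptor signalling, 1 was called, against 6.62% of all genes tested. This was Ereg, the ligand epiregulin, at 15.8, 15.4 and 20.1 CPM in FIPC-derived SOs and without a count in ISC-derived BOs (at least 45.2-fold higher, FDR = 2.83e-04), while the receptor Egfr had 14.9, 17 and 16.8 CPM and 15.2, 11.4, 13.3 and 12.5 CPM (log2 fold change -0.31 ± 0.29 (SE), FDR = 0.575).

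**Figure D3:**
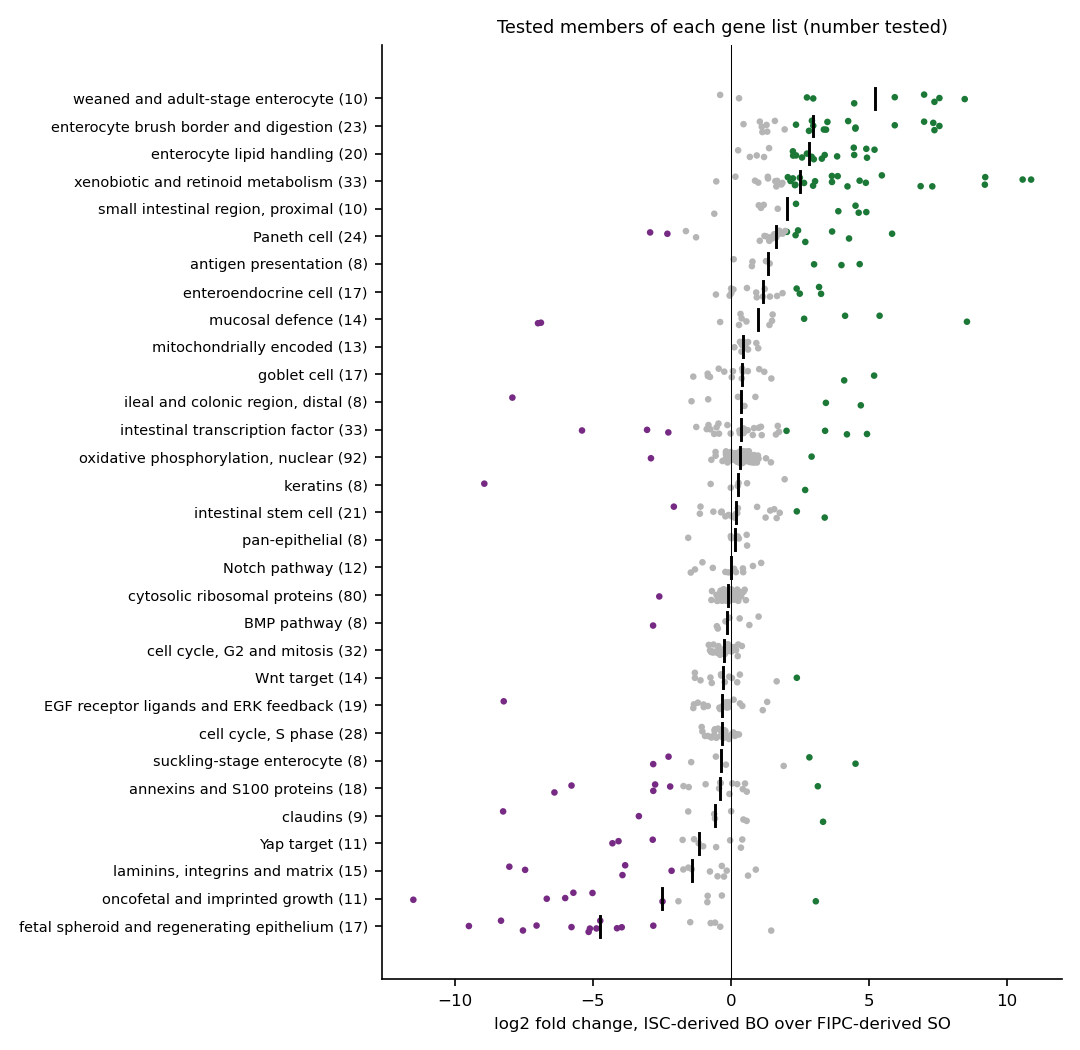
Log2 fold change of every tested member of the gene lists with at least 8 tested members, ordered by the list median (black bar), with the number tested in brackets. Green points were called higher in ISC-derived BOs, purple points higher in FIPC-derived SOs, and grey points were not called. The medians of the weaned-stage, brush border and lipid lists of enterocytes and of the xenobiotic and proximal lists lie to the right, those of the fetal spheroid, oncofetal and matrix lists to the left, and those of the cell cycle, ribosomal, Notch and pan-epithelial lists around 0.

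The list counts were repeated without the libraries that stood apart. Without the first FIPC-derived SO and second ISC-derived BO library, 17 brush border genes, 15 lipid genes, 22 xenobiotic genes and 7 Paneth cell genes were called higher in ISC-derived BOs, and 12 fetal spheroid genes, 6 oncofetal genes, 3 Yap targets and 4 matrix genes higher in FIPC-derived SOs. Without the third FIPC-derived SO library the counts were 17, 14, 22 and 8 in ISC-derived BOs and 12, 7, 3 and 4 in FIPC-derived SOs.

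Stem cell markers were called in both directions. Of 21 tested, 2 were higher in ISC-derived BOs and 1 in FIPC-derived SOs (median 0.17), against 6.62% called over all genes tested. At an FDR under 0.1 whatever the fold, 7 were higher in ISC-derived BOs and 3 lower, against 1886 of all 11644 genes tested. The groups did not overlap for 10 of the 21, against 23.8% of all genes tested. Lgr5, the R-spondin receptor of crypt stem cells, had 166, 120.1 and 136 CPM in FIPC-derived SOs and 164, 129, 176 and 106 CPM in ISC-derived BOs, with overlapping ranges (log2 fold change 0.03 ± 0.26 (SE), FDR = 0.962). Ascl2, the transcription factor of these cells, had 230.3, 123 and 96.6 CPM against 422, 748, 458 and 261 CPM, which did not overlap and passed the FDR but not the fold threshold (log2 fold change 1.66 ± 0.39 (SE), FDR = 0.0178). Sox9 had 649, 383 and 352 CPM against 337, 498, 390.4 and 212 CPM (log2 fold change -0.36 ± 0.31 (SE), FDR = 0.548). The called markers were the water channel Aqp4 (3.39, FDR = 1.02e-04) and the ephrin receptor Ephb3 (2.38, FDR = 1.68e-04) in ISC-derived BOs and Tnfrsf19 in FIPC-derived SOs (-2.07, FDR = 0.0233), and the call of Tnfrsf19 was lost without the third FIPC-derived SO library (log2 fold change -1.92) or the second (-1.82) or the third (-1.81) ISC-derived BO library, and without the first FIPC-derived SO and second ISC-derived BO library together (-1.90).

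Of 14 tested Wnt targets, Ephb3 alone was called (median -0.29), and Axin2, the feedback inhibitor of the pathway, had 7.47, 19.5 and 19 CPM against 15.8, 9.95, 15.2 and 18 CPM (log2 fold change -0.06 ± 0.39 (SE), FDR = 0.951). None of 12 tested Notch genes was called by edgeR (median 0.02), nor by DESeq2 or limma voom. By edgeR, 3 had an unadjusted p under 0.05, all lower in ISC-derived BOs, and 1 of them passed the FDR. Hes1, the main Notch target, had 62, 145 and 168 CPM against 107, 49.3, 112 and 167 CPM (log2 fold change -0.20 ± 0.43 (SE), FDR = 0.835). Of 8 tested BMP genes, Bmp8b was higher in FIPC-derived SOs (-2.82, FDR = 0.00518), and Id1, a target of the pathway, was not called (-0.51, FDR = 0.372). None of 28 S phase genes (median -0.34) or 32 genes of G2 and mitosis (median -0.23) was called by edgeR, DESeq2 or limma voom. By edgeR, 5 and 3 of them had an unadjusted p under 0.05, all lower in ISC-derived BOs, and 2 and 1 passed the FDR. Mcm2, a subunit of the replicative helicase, had 76.5, 108 and 68.6 CPM against 81.4, 97.6, 61.9 and 60.9 CPM. Mki67, the proliferation marker Ki67, had 699, 1061 and 862 CPM in FIPC-derived SOs and 979.8, 299, 999.8 and 979.7 CPM in ISC-derived BOs, where the second library lay far below the others (log2 fold change -0.10 ± 0.36 (SE), FDR = 0.903). Of 8 epithelial genes none was called by the 3 tools (median 0.13). By edgeR, 1 had an unadjusted p under 0.05 and also passed the FDR, with a lower level in ISC-derived BOs. The lowest log2 fold change of this list was -1.55. Cdh1, the E-cadherin of cell junctions, had 808, 884 and 841 CPM against 985, 982, 1028 and 1127 CPM (log2 fold change 0.29 ± 0.15 (SE), FDR = 0.295). A test that misses the threshold does not show that these levels were equal.

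**Figure D4:**
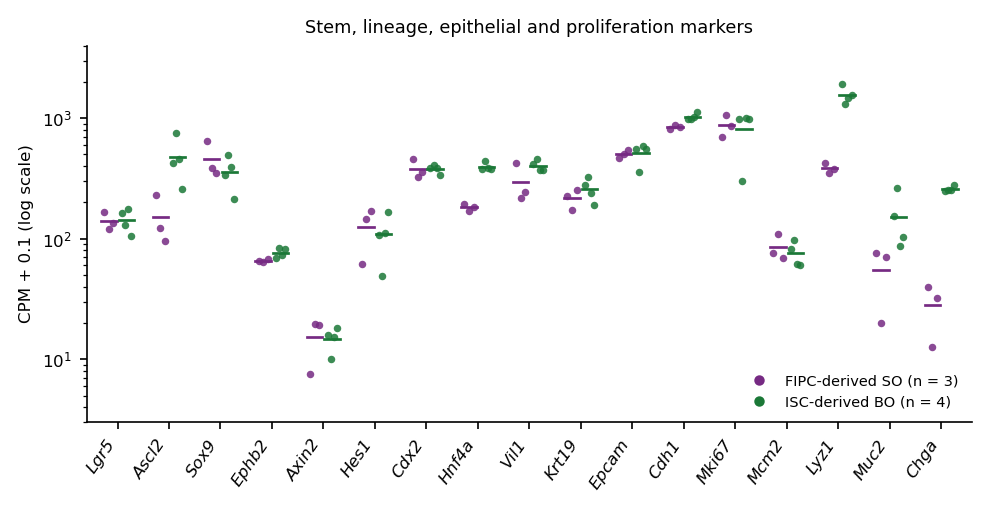
Levels of stem cell, transcription factor, epithelial, proliferation and lineage markers on a log-scaled y axis (CPM with 0.1 added), with points for the libraries (purple, 3 of FIPC-derived SOs, and green, 4 of ISC-derived BOs) and lines for the means. Lgr5, Cdx2, Epcam and Mcm2 overlap between the groups, Lyz1 and Chga do not, and the second ISC-derived BO library is the low point of Mki67.

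Markers of the secretory lineages were detected in both kinds of organoids, and most of those called were higher in ISC-derived BOs. Of 24 tested Paneth cell genes, 7 were called higher in ISC-derived BOs and 2 higher in FIPC-derived SOs (median 1.64). At an FDR under 0.1 whatever the fold, 20 were higher in ISC-derived BOs and 3 lower. Over all 11644 genes tested, 1077 were higher and 809 lower by this measure. Lyz1, the lysozyme of Paneth cells, had 421, 354 and 376 CPM in FIPC-derived SOs and 1933, 1305, 1459.7 and 1556 CPM in ISC-derived BOs (log2 fold change 2.03 ± 0.19 (SE), FDR = 7.32e-05). Its counts of 2756 to 3180 in ISC-derived BO libraries were near the 4096 that UMIs of 6 bases allow, against 852 to 1009 in FIPC-derived SO libraries, and correction for UMI saturation gave a log2 fold change of 2.73. Uncorrected, it was 1.97 with upper-quartile factors or without the second FIPC-derived SO library, and 1.91 without the first ISC-derived BO library. The defensin Defa29 had 6.15, 3.32 and 3.36 CPM against 103, 57.3, 72.4 and 101 CPM (log2 fold change 4.27 ± 0.39 (SE), FDR = 6.70e-05), but defensin genes are nearly identical copies and their separate counts are uncertain. Mptx1, a mucosal pentraxin, had 28.6, 22.4 and 59.6 CPM against 3.04, 2.84, 3.81 and 9.49 CPM (log2 fold change -2.93 ± 0.49 (SE), FDR = 0.00227), and Nupr1, a stress-induced nuclear protein, had 98, 39.9 and 114 CPM against 21.3, 15.2, 22.4 and 9.49 CPM (log2 fold change -2.3 ± 0.41 (SE), FDR = 0.0033).

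Of 17 tested goblet cell genes, 2 were called, both higher in ISC-derived BOs (median 0.39), against 6.62% called over all genes tested. Zg16, a lectin of mucus granules, had 6.59, 1.25 and 5.96 CPM against 83.3, 122, 34.8 and 79.4 CPM (log2 fold change 4.1 ± 0.57 (SE), FDR = 7.03e-04), and the kallikrein Klk1 had 3.52, 0.415 and 1.12 CPM against 81.4, 55.4, 66.2 and 44.4 CPM (log2 fold change 5.18 ± 0.53 (SE), FDR = 1.21e-04). The gel-forming mucin Muc2 had 75.6, 19.9 and 70.5 CPM against 155, 265, 87.6 and 103 CPM and did not reach the fold threshold (log2 fold change 1.46 ± 0.50 (SE), FDR = 0.0923). Of 17 tested enteroendocrine genes, 4 were higher in ISC-derived BOs and none lower (median 1.16). Chga, the granule protein chromogranin A, had 40, 12.5 and 32.4 CPM against 249.8, 255, 252 and 277 CPM (log2 fold change 3.19 ± 0.38 (SE), FDR = 2.78e-04), and the incretin hormone Gip had 4.84, 0.415 and 0.746 CPM against 18.8, 30.3, 16.7 and 10.5 CPM (log2 fold change 3.26 ± 0.68 (SE), FDR = 0.00858). Of 4 tested tuft cell genes, the ion channel Trpm5, without a count in FIPC-derived SOs and at 4.86, 9.0, 4.76 and 3.5 CPM in ISC-derived BOs (at least 13.7-fold higher, FDR = 0.00272), and the kinase Dclk1 (log2 fold change 2.81 ± 0.73 (SE), FDR = 0.0269) were higher in ISC-derived BOs. The count of 2 fell to 1 without the first, second or the third ISC-derived BO library, and 13 of 17 tuft cell genes were too scarce to test.

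Among 33 tested intestinal transcription factors, 4 were higher in ISC-derived BOs and 3 in FIPC-derived SOs (median 0.35), against 4% and 2.62% of all genes tested. Vdr, the vitamin D receptor, had 80.4, 51.1 and 36.5 CPM against 985, 965, 1049 and 1114 CPM (log2 fold change 4.2 ± 0.29 (SE), FDR = 1.75e-05). Sox11, a factor of embryonic progenitors, had 7.91, 4.99 and 10.1 CPM in FIPC-derived SOs and a single count in ISC-derived BOs (60.8-fold, 95% counting interval 10.5 to 2445), and Sox21 had 13.6, 20.8 and 20.5 CPM against 3.04, 0.947, 1.9 and 3.0 CPM (log2 fold change -3.04 ± 0.43 (SE), FDR = 7.38e-04). Hnf4a, a nuclear receptor of gut and liver, had 195, 169 and 184 CPM against 376, 440, 387 and 379 CPM, a difference beyond the spread of the libraries but below the fold threshold (log2 fold change 1.11 ± 0.20 (SE), FDR = 0.00322). Klf5 had a log2 fold change of 0.61, FDR = 0.242 and Gata4, a factor of the proximal intestine, of 1.09, FDR = 0.157.

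Of 10 tested genes of the proximal small intestine, 5 were higher in ISC-derived BOs and none lower (median 2.02), among them Bche, a cholinesterase, at 11.9, 17.5 and 10.1 CPM against 194, 214, 139 and 232 CPM (log2 fold change 3.89 ± 0.34 (SE), FDR = 4.65e-05), and the alcohol dehydrogenase Adh6a (4.62, FDR = 3.87e-04). Of 8 tested genes on a list made for ileum and colon, 2 were called higher in ISC-derived BOs. These were Slc26a3, a chloride and bicarbonate exchanger (3.44, FDR = 2.60e-04), and the hormone uroguanylin, Guca2b (4.7, FDR = 3.50e-04). Whether the members of this list are confined to these regions was not tested. Wfdc2, a secreted protease inhibitor, was higher in FIPC-derived SOs, at 99.3, 38.2 and 86.9 CPM and a ratio of 294-fold, 95% counting interval 81 to 2434. Of 4 tested stomach genes Vsig1, an adhesion protein, was higher in FIPC-derived SOs, at 37.8, 59.8 and 47.3 CPM against 4.25, 0, 1.43 and 0 CPM (log2 fold change -5.15 ± 0.70 (SE), FDR = 5.89e-04). Of 39 Hox genes 37 were too scarce to test, and Hoxb4 was called higher in FIPC-derived SOs (-2.85, FDR = 0.010). Without the second FIPC-derived SO library 4 Hox genes were called higher in FIPC-derived SOs.

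Genes of defence were also divided. Of 14 tested genes of mucosal defence, 4 were higher in ISC-derived BOs, Reg1 and Pigr among them, and 2 in FIPC-derived SOs (median 0.98). Besides Fut2, Sftpd, a collectin, was higher in FIPC-derived SOs, with 7.47, 7.48 and 6.71 CPM and no count in ISC-derived BOs (at least 18.9-fold higher, FDR = 0.00129). Of 8 tested genes of antigen presentation, 3 were higher in ISC-derived BOs (median 1.34), including the class I genes H2-Q1 (4.66, FDR = 3.41e-04) and H2-Q2 (3.01, FDR = 1.88e-04), which are similar copies. Of 5 tested interferon-stimulated genes, Ifitm3, a membrane protein that restricts viruses, had 6.15, 4.57 and 7.46 CPM against 76.6, 249.6, 30.5 and 46.4 CPM (log2 fold change 4.04 ± 0.74 (SE), FDR = 0.00393), the highest value being that of the second ISC-derived BO library, and Isg15 had 0 and 4 counts.

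Genes of protein synthesis and respiration were called in small numbers. Of 80 tested ribosomal protein genes, Rps4l, related to Rps4x and annotated as a transcribed processed pseudogene, was the one called and higher in FIPC-derived SOs (-2.59, FDR = 0.0043), and the median was -0.12. Of 92 nuclear genes of oxidative phosphorylation, Cox7a1 was higher in ISC-derived BOs (2.92, FDR = 0.00508) and Cox6b2 in FIPC-derived SOs (-2.9, FDR = 0.0617), the latter with overlap of the groups and without a call when the first (FDR = 0.169) or the third (FDR = 0.150) FIPC-derived SO library or the first (FDR = 0.146), the third (FDR = 0.154) or the fourth (FDR = 0.111) ISC-derived BO library was left out. The median of the nuclear genes was 0.31. None of 13 mitochondrially encoded genes was called by edgeR, DESeq2 or limma voom, although by edgeR 9 had an unadjusted p under 0.05 and 5 passed the FDR, all higher in ISC-derived BOs (median 0.45). The counts of mt-Nd1, 3452 to 3887 in FIPC-derived SO libraries and 3740 to 3976 in ISC-derived BO libraries, were close to the limit of 4096, so that its levels follow the library totals and no fold change is given. The median and the 9 genes include mt-Nd1, which was not among the 5. Whether this limit also shaped the other mitochondrially encoded genes was not tested.

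Markers of other cell types were set beside these groups. The 16 markers of mesenchyme and smooth muscle all failed the filter, which asks for counts in several libraries, with a summed level of 15.8, 8.31 and 648 CPM in the FIPC-derived SO libraries and 3.04 to 4.26 CPM in the ISC-derived BO libraries. Without the third FIPC-derived SO library 774 genes were called, 492 higher in ISC-derived BOs and 282 higher in FIPC-derived SOs, of which 701 were also called with it. Of 15 markers of endothelium, blood and immune cells, 1 was testable, the lysozyme Lyz2, which had 31.7, 54.4 and 62.3 CPM against 485, 168, 297 and 459.9 CPM (log2 fold change 2.83 ± 0.41 (SE), FDR = 8.97e-04), while Ptprc, the leukocyte antigen CD45, had 0 and 3 counts. Lyz2 is a near copy of Lyz1, so that the counts of the pair may be shared. Of 4 tested hepatocyte and pancreas genes, Cps1, also an enzyme of the intestine, and Ttr were higher in ISC-derived BOs (2.02, FDR = 0.00478 and 2.8, FDR = 0.0038). The log2 fold change of Cps1 was 2.35 with correction for UMI saturation and 1.83 to 1.99 without the first or the third FIPC-derived SO library or the first, the third or the fourth ISC-derived BO library. Of 2 tested genes of the enteric nervous system none was called by edgeR, DESeq2 or limma voom, and 0 had an unadjusted p under 0.05. Their part in the results above was not tested, except by the fits without single libraries.

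The study also grew organoids of both forms from dediHeps, the hepatocyte-derived cells, which allowed the difference between BOs and SOs to be compared between origins. These were 3 libraries of dediHep-derived SOs and 3 of dediHep-derived BOs, from C57BL/6J mice 10 weeks of age, and the BOs also carried a retrovirus expressing Cdx2. The interaction of the 13 libraries, in which no library belongs to both arms, was called for 1170 of 12379 genes (9.45%), 505 with a greater log2 fold change in the intestinal organoids and 665 with a smaller one. The count went to 749 without the first dediHep-derived SO library and to 2157 without the third. Of 459 genes called higher in ISC-derived BOs and present in this fit, 393 were also higher in dediHep-derived BOs than in dediHep-derived SOs, 295 of them called, and 17 were called in the opposite direction. Of 303 genes called higher in FIPC-derived SOs, 239 were also higher in dediHep-derived SOs, 140 of them called, and 16 were called in the opposite direction. Over all genes of the fit, 855 (6.91%) were called higher in dediHep-derived BOs and 721 (5.82%) higher in dediHep-derived SOs. The interaction itself was called for 192 and 97 of these genes.

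Pigr had the interaction with the smallest p among those greater in the intestinal organoids. It stood at 663 ± 60.3 CPM (SD, n = 3) in dediHep-derived SOs, 547 ± 105 CPM (n = 3) in dediHep-derived BOs, 18.8 ± 7.83 CPM (n = 3) in FIPC-derived SOs and 792 ± 112 CPM (n = 4) in ISC-derived BOs (interaction 5.67 ± 0.38 (SE), FDR = 2.68e-06). FIPC-derived SOs were thus the only group of the 4 with a low level. Ly75, an endocytic receptor, and Slc25a45, a mitochondrial carrier, followed, with log2 fold changes of 4.72 and 4.69 in intestinal and -1.51 and -2.22 in dediHep-derived organoids. Among those smaller in the intestinal organoids, the Paneth cell genes Ang4 and Lyz1 were nearly absent from dediHep-derived SOs, at 0.173 ± 0.30 and 1.21 ± 2.1 CPM, against 41.6 ± 17.7 and 376 ± 39 CPM in FIPC-derived SOs. Arid3a, a DNA-binding protein, was higher in FIPC-derived SOs than in ISC-derived BOs (-4.56) and lower in dediHep-derived SOs than in dediHep-derived BOs (2.92, interaction -7.48 ± 0.60 (SE), FDR = 9.29e-06). It was scarce in the dediHep-derived organoids, with 3 counts in all SO libraries and 23 in all BO libraries.

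Of the 7 adult-type Cdx2 targets, 6 had a called interaction, each with a greater difference between BOs and SOs in the dediHep-derived organoids. Fabp1, Fabp2, Sis and Lct had no count in dediHep-derived SOs, whereas Fabp1 stood at 23.8 ± 24.1 CPM and Fabp2 at 62.8 ± 33.4 CPM in FIPC-derived SOs. In the BOs Fabp1 stood at 652 ± 200.1 CPM (dediHep-derived) and 727 ± 299 CPM (ISC-derived), and Sis at 209 ± 119 and 159.9 ± 69.4 CPM. Mttp was at 2.6 ± 1.82 CPM in dediHep-derived and 74.5 ± 27.2 CPM in FIPC-derived SOs (interaction -4.29 ± 0.53 (SE), FDR = 2.21e-04), and Mep1b at 0.519 ± 0.899 and 16 ± 5.88 CPM (interaction -4.22 ± 0.87 (SE), FDR = 0.00748). For Alpi the interaction was -2.62 at an FDR of 0.0983, near the threshold, and it kept its call without the third dediHep-derived SO, first FIPC-derived SO or the fourth ISC-derived BO library but lost it without any other single library (FDR = 0.127 to 0.242). For Lct it was not called (interaction -2.03 ± 1.75 (SE), FDR = 0.451), and without the first FIPC-derived SO library it was 0.97.

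**Figure D5:**
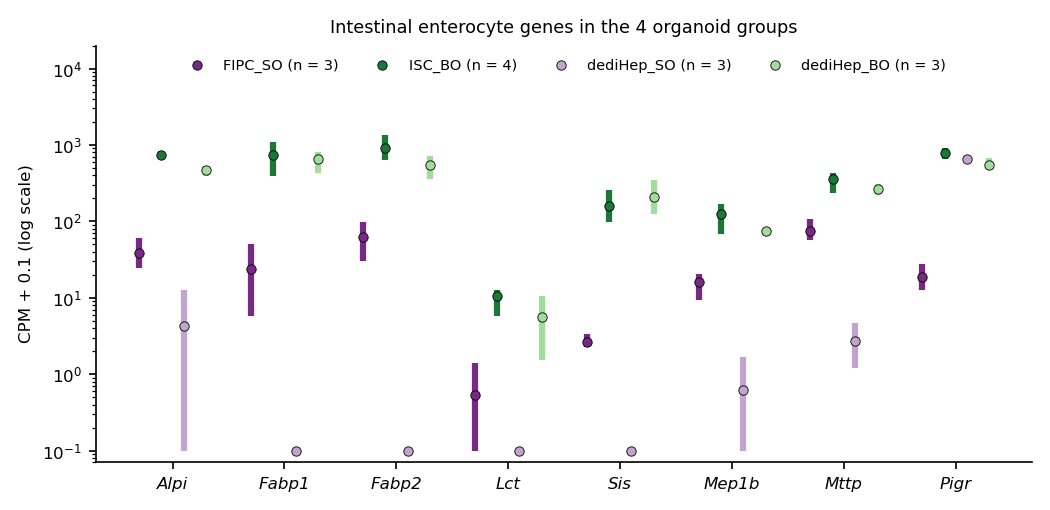
Mean level (points) and range over libraries (bars) of the 7 adult-type Cdx2 targets and Pigr in FIPC-derived SOs, ISC-derived BOs, dediHep-derived SOs and dediHep-derived BOs, on a log-scaled y axis (CPM with 0.1 added). For each Cdx2 target the mean is lowest in dediHep-derived SOs and next lowest in FIPC-derived SOs, with Lct scarce in every group, while Pigr is low only in FIPC-derived SOs.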

How the data were processed

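Transcript levels were measured by CEL-Seq2, a 3′ method with UMIs. The authors deposited counts of unique UMIs per Ensembl gene, not normalised, as 1 table for all 49 libraries, and no column was left out. The submitters' processing notes list GRCm38, bcl2fastq 2.20, Bowtie2 2.3.1 and HTSeq 0.6.0. With UMIs of 6 bases a gene can reach at most 4096 counts in a library, so the highest levels are compressed. Of 46078 identifiers 45143 were given a symbol. Genes were filtered by expression (minimum count 10, minimum total 15), scaled by TMM and fitted with edgeR 4.0.16 (quasi-likelihood F test, R 4.3.3). Calls needed the FDR of the study, under 0.1, with log2 fold changes beyond 2 in either direction. A fold against a group without counts was computed with 3 counts over the group. The alternatives used DESeq2 1.42.0 and limma 3.58.1, other scalings, filters and thresholds, a replicate block and fits without single libraries. The lists and members were chosen with earlier results of these data known.

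Genes are named by rule as the leading 10 called genes of either direction, ranked by p among those whose groups do not overlap, up to 2 called members per direction of each list, the first gene of each list, intestinal markers and the adult-type Cdx2 targets. For the interaction the rule takes the leading 3 called genes of either direction by p. A few genes that the rule names are not reported here.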

Additional observations from a re-analysis of the deposited data

Results flagged for a closer look

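In ISC-derived BOs, the one group of the comparison with 4 libraries, a library lay far from the other 3 for 10 of 99 gene and group combinations, where chance gives about 1 in 20. The combinations share the same 4 libraries and are not independent, so that no excess over chance was shown. The second library was low for Mki67 (298.8 CPM against 979.7 to 999.8) and Ctsl (15.6 against 21.3 to 22), and high for Cox6b2 (5.21 against 0 to 0.476) and Hnf4a (440.0 against 376 to 387). The third library was low for Lct (5.71 against 12 to 12.8) and Mttp (231.8 against 395.5 to 428), and high for Afp (12.4 against 4.99 to 6.08) and Anxa1 (1.43 against 0.474 to 0.608). The fourth was high for Mptx1 (9.49 against 2.84 to 3.81) and the first for mt-Nd1 (2273 against 1881 to 1895). The counts of mt-Nd1, 3740 in the first library and 3794 to 3976 in the other 3, lay close to the limit of 4096 that the UMIs allow, and the first library had the smallest total, so that its high level is not a higher count. The values of Anxa1 and Cox6b2 rest on few counts.

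The difference between BOs and SOs differed between intestinal and dediHep-derived organoids, by the interaction of the edgeR fit, for 12 genes. The leading 3 of either direction were chosen because their interaction was called, and the others are the adult-type Cdx2 targets except Lct. The count of 12 thus follows in part from the choice. Over all genes of the fit, 9.45% had a called interaction. It was greater in the intestinal organoids for Pigr (5.67 on the log2 scale), Ly75 (6.23) and Slc25a45 (6.91). It was smaller for Ang4 (-9.95), Lyz1 (-8.55), Arid3a (-7.48), Fabp1 (-8.52), Fabp2 (-9.32), Sis (-5.86), Mep1b (-4.22), Mttp (-4.29) and Alpi (-2.62). The values of Fabp1, Fabp2 and Sis rest on a group without counts and depend on the prior count, so that they are no measure of size. Those of Ang4, Arid3a, Mep1b and Lyz1 rest on 1, 3, 3 and 7 counts in all dediHep-derived SO libraries together, and their size is uncertain too.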

How the results depend on the processing

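The main count of 771 called genes moved by over 1.5 times under some alternatives. It was 1168 with DESeq2, which was run on 21806 genes without that filter, 1504 with edgeR and no filter, 1215 with at least 1 CPM in 3 libraries, 1344 with at least 0.5 CPM in 1 library, 1587 at a log2 fold change over 1, 1886 at any fold, and 375 when the fold threshold was part of the test (glmTreat). With RLE or upper-quartile factors, limma voom, an FDR under 0.05, correction for UMI saturation or thinning it was 719 to 781. Leaving out each library gave 732 to 878. The interaction count of 1170 was 1758 with no filter, and 749 to 2157 with each library left out. Added after seeing the data, fits without the first FIPC-derived SO and second ISC-derived BO library, with sex transcripts or with the pseudogene share as a covariate gave 855, 786 and 764 calls.

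The labels do not say whether the replicate numbers pair the libraries. Deviations of same-numbered libraries had correlations of -0.145, -0.47 and 0.214, which are too few to decide it. Xist was high in replicates 1 and 2 of both groups and Y-linked genes in replicate 3 of both. With the replicate number as a block 740 genes were called, 702 of them among the 771, and the interaction count was 1453. None of the 83 called genes named changed direction under any alternative in which it was tested, 59 were tested and kept their call throughout, and 77 did so with each library left out.

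Genes not called, with fold changes near 0, changed sign. Lgr5 was -0.018 with upper-quartile factors and -0.075 to 0.20 with libraries left out. Axin2 was 0.017 with limma voom, 0.59 with the pseudogene covariate and -0.36 to 0.15 with libraries left out. Hes1 was 0.67 with that covariate and -0.49 to 0.090. Cdx2 was 0.0075 with RLE, 0.015 with DESeq2, 0.0057 with voom, 0.0056, 0.0017 and 0.0082 with the other filters in the order above, 0.019 and 0.0056 with all and with the 13 organoid libraries, 0.057 with the block, 0.0087 when thinned, 0.14 without both libraries, 0.010 with the sex covariate and -0.12 to 0.17 with libraries left out. Epcam was -0.033 with upper-quartile factors, -0.013 with voom, -0.048 with the block, -0.026 with UMI correction, -0.032 with the sex covariate and -0.054 to 0.16. Mcm2 was -0.31 to 0.050. Mki67 was 0.072 without both libraries, 0.41 with the pseudogene covariate and -0.21 to 0.18. Rpl13 was 0.0060 with voom, 0.094 with the block, 0.26 without both libraries, 0.0065 with the sex covariate and -0.25 to 0.30. The interaction of Lct was -2.57 to 0.97. The cause of these changes was not tested.

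Small list counts depended on single libraries. The count of keratins higher in ISC-derived BOs went from 1 to 2 without the third FIPC-derived SO library or the first, the second or the third ISC-derived BO library, that of interferon-stimulated genes from 1 to 2 without the third FIPC-derived SO library, that of Wnt targets from 1 to 2 without the first, and that of distal genes higher in FIPC-derived SOs from 1 to 2 without the second. Depth limits genes under about 1.12 to 1.82 CPM, such as most tuft cell and Hox genes.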
